A study of Mus musculus with 3 samples.

Results

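The immediate early genes are the first genes that a neuron switches on after it fires. The 10 described here are Fos, Fosb, Fosl2, Junb, Egr1, Egr3, Npas4, Nr4a1, Nr4a3 and Arc. Each was taken as the probe set whose only symbol in the platform's probe table is that gene, and all 10 had exactly 1 probe set, so the group holds 10 of the 22180 genes and 10 of the 41345 probe sets on the array. The genes were chosen on their log2 values in all 3 cultures, so their levels are given as a description and carry no test.

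Gene expression was measured on 1-colour arrays in 3 biological replicate cultures, which form 1 group. The cells came from the medial ganglionic eminence (MGE), a zone of the embryonic ventral forebrain from which many cortical and striatal GABA neurons arise, of wild-type CD-1 mouse embryos at embryonic day 13. All 3 cultures were plated at 59000 cells per cm2 and grown with FGF2 (40 ng/ml), 2% B27 and 500 µM glutamine. Each also had 3 medium changes 2 h apart. All received AraC, a nucleoside analogue that kills dividing cells, at 1 µM for 24 h from day 5 and were kept for 2 more days. There was no stimulated, silenced or untreated group, so no value below compares a treatment with a control, and how embryos were pooled into cultures is not given in the sources used here. Each array measured a whole culture. In such bulk samples fewer cells of a type and less RNA per cell cannot be told apart.

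Immediate early genes need no new protein to be transcribed. Calcium that enters an active neuron, and growth factors acting through the MAP kinase pathway, turn on factors already sitting on their promoters, among them CREB, which binds the cAMP response element (CRE), and SRF, which binds the CArG box. FOS, FOSB and FOSL2 pair with JUN proteins to form the AP-1 transcription factor. EGR1 and EGR3 are zinc finger factors, NR4A1 and NR4A3 are nuclear receptors that act without a known natural ligand, and NPAS4 is a factor largely restricted to neurons that responds to calcium entry and shapes inhibitory synapses. ARC is the effector in the group, a protein that promotes the removal of AMPA glutamate receptors from synapses. Npas4 responds narrowly to depolarization, whereas Fos, Junb and Egr1 also respond to growth factors and handling in many cell types.

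Promoter sequences, credited to RefSeq on the mouse build GRCm38.p6, were used for 7 of the 10 genes (all but Egr1, Egr3 and Arc). They are shown because CREB's CRE is the textbook input of these genes, and because the genes differed in how far the cultures diverged. For Npas4 (chr19:4989972-4990221, minus strand), Nr4a1 (chr15:101266596-101266845, plus strand), Fos (chr12:85473640-85473889, plus strand) and Junb (chr8:84978749-84978998, minus strand) the lines hold the 250 bases before the transcript start. For Nr4a3 (chr4:48045088-48045117, plus strand) and Fosb (chr7:19310088-19310117, minus strand) they hold 30 bases, with 2 matches in Nr4a3 and 1 in Fosb. Other RefSeq models of Npas4, Nr4a1, Nr4a3 and Fosb start further upstream, so these windows lie before the start of the transcript in the promoter table but partly or wholly inside the gene's full span. All run 5′ to 3′ on the strand of the gene, and capitals mark TGACG, the core of the CRE, in either direction (CGTCA on the other strand), and in Fos also the TATAAA box.
Npas4: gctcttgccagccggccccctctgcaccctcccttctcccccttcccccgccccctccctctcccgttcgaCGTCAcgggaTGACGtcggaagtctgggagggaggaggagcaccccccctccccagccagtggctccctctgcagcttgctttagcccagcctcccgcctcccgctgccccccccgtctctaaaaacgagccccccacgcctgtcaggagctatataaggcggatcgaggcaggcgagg
Nr4a1: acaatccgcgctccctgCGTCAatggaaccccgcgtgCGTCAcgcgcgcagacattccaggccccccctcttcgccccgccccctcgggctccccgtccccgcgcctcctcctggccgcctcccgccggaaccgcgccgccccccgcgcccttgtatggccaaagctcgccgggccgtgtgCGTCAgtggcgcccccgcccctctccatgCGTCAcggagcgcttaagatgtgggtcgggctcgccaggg
Fos: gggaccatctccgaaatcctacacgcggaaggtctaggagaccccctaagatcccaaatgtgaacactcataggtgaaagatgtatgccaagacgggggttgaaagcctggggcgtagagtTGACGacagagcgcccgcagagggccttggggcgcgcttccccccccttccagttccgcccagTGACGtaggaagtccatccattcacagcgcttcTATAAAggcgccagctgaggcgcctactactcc
Junb: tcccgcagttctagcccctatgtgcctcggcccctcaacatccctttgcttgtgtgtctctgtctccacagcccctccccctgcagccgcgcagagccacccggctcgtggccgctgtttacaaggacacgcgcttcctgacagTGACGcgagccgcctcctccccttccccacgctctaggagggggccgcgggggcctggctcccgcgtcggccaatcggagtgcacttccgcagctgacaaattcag
Nr4a3: atgtCGTCAcatTGACGtctcgcattccag
Fosb: tggagttgcgggTGACGcaagcgcgggggc

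The core TGACG stood at least 1 time in the 250 bases before the start of 6 of the 7 genes, Fosl2 being the exception. Of all 32851 promoter windows, 17.8% held it, and 20.2% of the 21263 windows of protein-coding genes did. Nr4a1 and Nr4a3 had 4 matches each, a number that 0.188% of the protein-coding windows reached or passed. Fos and Npas4 had 2 each, and Junb and Fosb 1 each, against 4.85% of protein-coding windows with 2 or more. In Npas4 the matches lay close together on opposite strands, at bases 179 to 175 and 169 to 165 before the start. In Nr4a1 they were spread, at 233 to 229, 213 to 209, 69 to 65 and 40 to 36 before the start. These windows were richer in G and C, from 58.4% in Fos to 74.4% in Nr4a1, than the median protein-coding window (55.6%), and the part of base composition in the matches was not tested. The complete palindrome TGACGTCA was in none of the 7 windows (1.92% of protein-coding windows), nor were the CArG box (1.39%), the AP-1 site TGANTCA (6.13%), the EGR site GCGTGGGCG (0.72%) or the NR4A site AAGGTCA (3.59%). TATAAA was in Fos alone (11.6% of protein-coding windows), at bases 33 to 28 before the start. Only these exact letters were searched, so near variants such as the tatataa in the Npas4 line were not counted. TGACGTCA contains TGACG, so these counts overlap. A match describes letters and shows no binding, and sites outside the 250 bases were not searched.

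**Figure D1:**
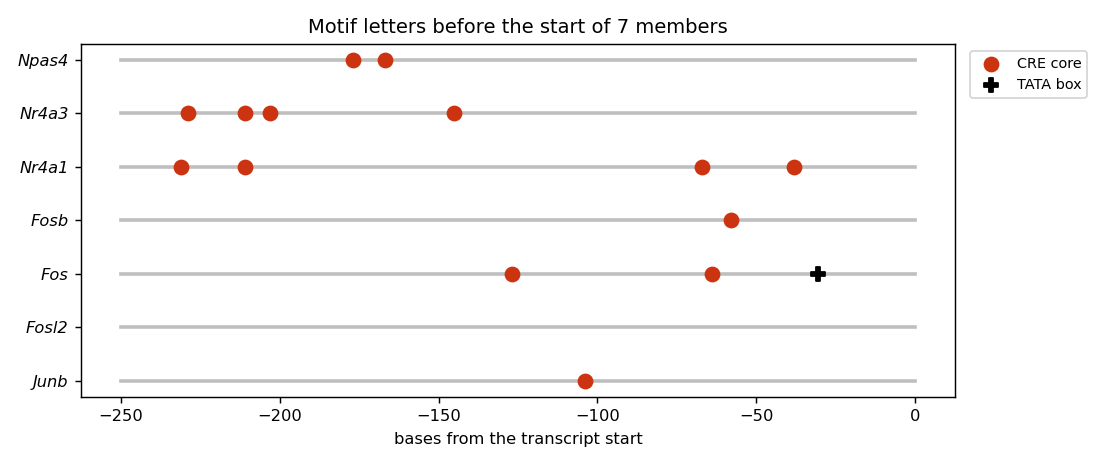
Matches in the 250 bases before the transcript start of the 7 immediate early genes with a promoter sequence (x axis, bases from the start, on the gene's strand; 1 grey line a gene). Circles mark the CRE core TGACG on either strand, and the plus sign (TATA box) marks the exact letters TATAAA only. Nr4a1 and Nr4a3 carry 4 circles each and Fosl2 none.

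All 10 genes gave signal over the background line in each of the 3 cultures. The line, 6.26 log2 units, is the 95th percentile of the means of 1440 probe sets of smell, pheromone and bitter taste receptor genes, which are not expected in forebrain cultures. By the same measure 64.5% of the 20751 genes tested lay over the line in every culture, and 63.4% were called above background by limma (adjusted p under 0.05), a call used below for other genes only. The 10 genes were chosen with these values known, so nothing is read from their count. All values are RMA log2 signals, in which 1 unit is a doubling of signal, means are ± SD over n = 3 cultures, and levels are not compared between genes because probe sets bind with different strength.

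Npas4, the calcium-responsive neuronal factor, varied more between the cultures than any other of the 10. Its signal was 7.39 in culture 1, 9.21 in culture 2 and 9.64 in culture 3 (mean 8.75 ± 1.19). Culture 1 stood apart from the other two, and culture 3 exceeded it by 2.25 log2 units, or 4.76-fold. Among the 23521 probe sets with 1 gene symbol only that of Bmp4, a growth factor of the TGF-beta family, had a larger SD (9.04, 6.55 and 7.89 in cultures 1, 2 and 3), and Bmp4 was highest where Npas4 was lowest.

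The nuclear receptors Nr4a1 and Nr4a3 followed the same layout. Nr4a3 (NOR-1) was at 8.36, 10.10 and 10.34 in cultures 1, 2 and 3 (9.60 ± 1.08), which put its SD at rank 7 of all probe sets with 1 symbol. Nr4a1 (NUR77) was at 8.99, 10.11 and 10.64 (9.91 ± 0.84). Culture 3 exceeded culture 1 by 1.99 log2 units (3.96-fold) for Nr4a3 and by 1.65 (3.14-fold) for Nr4a1. The remaining receptor of the family, Nr4a2 (NURR1), is no member of the group and was measured at 8.91, 10.23 and 10.24 (9.79 ± 0.77), again lowest in culture 1. In all these receptors cultures 2 and 3 were closer to each other than either was to culture 1.

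The Fos family genes in the group fell into 2 layouts. Fos was at 7.17, 8.55 and 8.54 (8.09 ± 0.80), and Fosl2 (FRA-2), a slower member of the family, at 8.21, 9.56 and 9.53 (9.10 ± 0.77). For both, cultures 2 and 3 were within 0.03 log2 units of each other and exceeded culture 1 by 1.32 to 1.38. Fosb was at 6.40, 7.06 and 8.19 (7.21 ± 0.91), so that culture 3 stood apart instead. It exceeded culture 2 by 1.13 log2 units (2.19-fold) and culture 1 by 1.79 (3.47-fold), and in culture 1 it lay just over the background line of 6.26. Of the 13145 other genes called above background, 0.0989% exceeded culture 2 by 1 log2 unit or more in culture 3. Fosb was the only one of the 10 immediate early genes to do so.

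Junb, the JUN family partner in the group, had the smallest span of the 10, although its SD was at percentile 68.0 of all probe sets with 1 symbol. It was at 7.11, 7.30 and 7.48 (7.30 ± 0.18), a span of 0.37 log2 units. Its relatives Jun, at 10.73, 10.60 and 10.62, and Jund, at 9.35, 9.74 and 9.48, spanned 0.13 and 0.39, and neither had culture 3 highest. Fosl1 was not analysed here. So where Fos and Fosl2 differed between cultures by more than 1.3 log2 units, the measured JUN genes differed by less than 0.4.

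The EGR genes and Arc lay between these extremes. Egr3 was at 7.02, 7.42 and 7.96 (7.47 ± 0.47), 0.94 log2 units (1.92-fold) higher in culture 3 than in culture 1. Egr1 (NGFI-A, ZIF268) was at 8.75, 8.70 and 9.17 (8.87 ± 0.26), so cultures 1 and 2 nearly coincided and culture 3 was 0.42 log2 units (1.34-fold) over culture 1. Arc was at 8.07, 8.31 and 8.58 (8.32 ± 0.25), 0.51 log2 units (1.42-fold) higher in culture 3 than in culture 1. Egr2 (7.14, 7.33 and 7.53) and Egr4 (6.499, 6.734 and 6.748), the relatives outside the group, spanned 0.40 and 0.25 log2 units and were lowest in culture 1. Without culture 2, Egr4 was not called (limma adjusted p = 0.0695). Arc and Egr1, which are widely used with Fos as markers of active neurons, thus spanned less over the 3 cultures than Fos did. Between cultures 3 and 2 the order was reversed, with differences of 0.47 log2 units in Egr1, 0.28 in Arc and -0.01 in Fos.

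**Figure D2:**
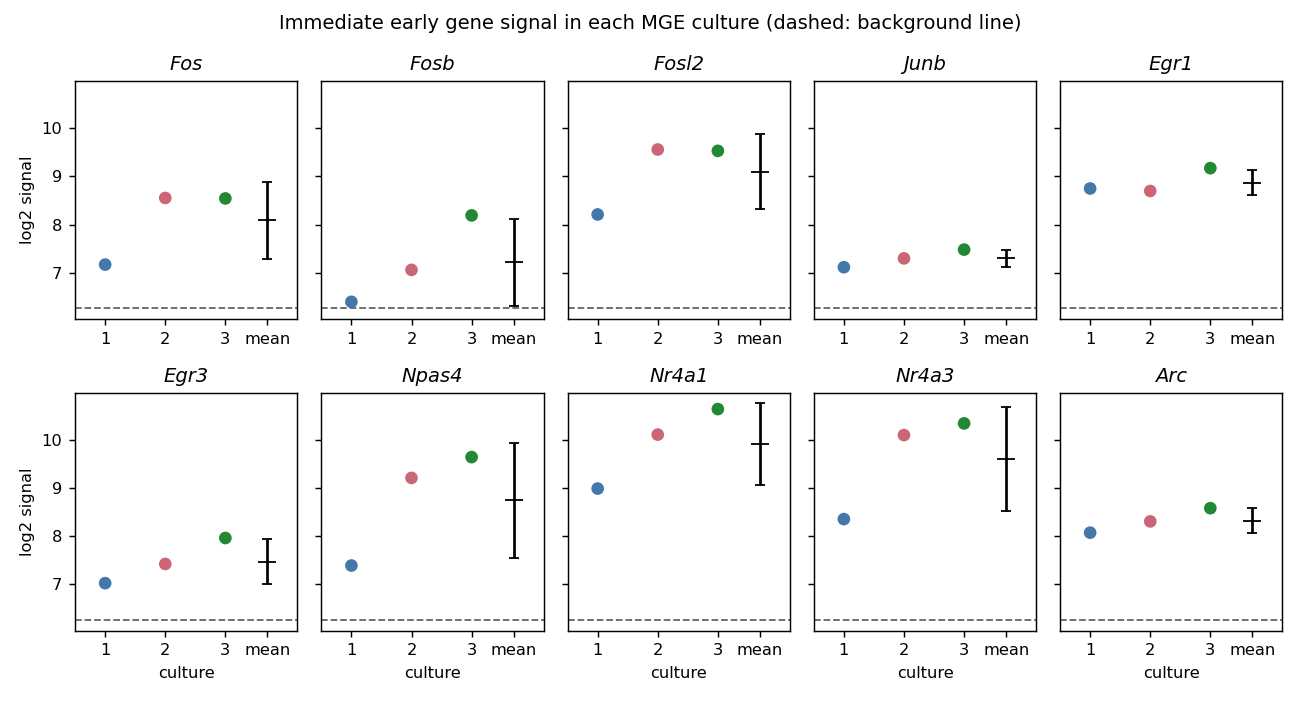
RMA log2 signal (y axis) of each immediate early gene in cultures 1, 2 and 3 (blue, red and green points), with the mean ± SD over n = 3 cultures in black and the background line at 6.26 dashed. Npas4, Nr4a1, Nr4a3, Fos, Fosl2 and Fosb span more than 1.3 log2 units, whereas Junb, Egr1 and Arc span 0.37, 0.47 and 0.51.

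Culture 3 exceeded culture 1 in all 10 genes, with a median difference of 1.35 log2 units and a range from 0.37 (Junb) to 2.25 (Npas4). The median over the 13145 other genes called above background was 0.00, and 49.8% of them were higher in culture 3. A difference of at least 1 log2 unit in that direction was found in 6 of the 10 genes (Fos, Fosb, Fosl2, Npas4, Nr4a1 and Nr4a3) and in 26 of the others (0.198%). Culture 2 exceeded culture 1 in 9 of the 10, Egr1 being the exception at -0.05, with a median of 0.89, against 0.06 and 60.2% of all others. By at least 1 log2 unit this held for 5 of the 10 and for 0.768% of the others. Each culture has 1 array, so no test of a difference between them could be made, and the genes were chosen with this pattern known.

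Culture 1 was the lowest culture in 9 of the 10 genes (42.4% of the others), and in 7 culture 1 was lowest and culture 3 highest (8.12%). Culture 3 was the highest in 8 (2037 of the 13145 others), with Fos and Fosl2 higher in culture 2 by 0.01 and 0.03 log2 units. After quantile normalization of the deposited values these turned to 0.06 and 0.02 higher in culture 3, and after median centring Egr1 was 0.005 higher in culture 2 than in culture 1, so the order within these near ties depends on the scaling (culture 3 highest in 10 of 10, and culture 1 lowest in 10 of 10, respectively). The median difference between cultures 3 and 2 was 0.35 over the 10 genes and -0.07 over the others, of which 32.8% were higher in culture 3. A replicate number only names a culture, so these layouts are no course over time or dose.

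**Figure D3:**
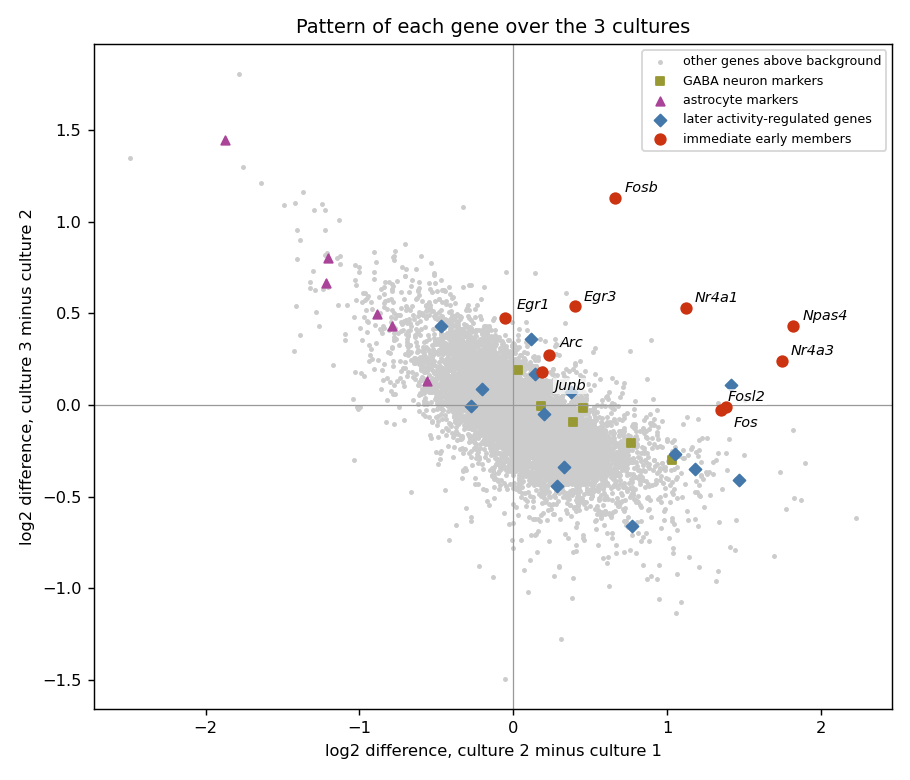
Each point is a gene, placed by its log2 difference between cultures 2 and 1 (x axis) and between cultures 3 and 2 (y axis); grey points are the other genes called above background, and the slope of their cloud comes in part from culture 2 entering both axes with opposite sign. Of the 10 immediate early genes, 7 lie in the upper right quadrant (culture 1 lowest, culture 3 highest), where 8.12% of the grey points lie. To the lower right (culture 2 highest) lie 5 of 6 GABA neuron markers and 6785 of the 13145 grey points. All 6 astrocyte markers lie to the upper left.

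Cell type markers differed between the cultures as well. All 6 GABA neuron markers were called above background and were lowest in culture 1. Gad1, which makes GABA, was at 9.64, 10.67 and 10.37, Gad2 at 10.44, 10.90 and 10.88, and the vesicular GABA transporter Slc32a1 at 8.39, 9.16 and 8.95. Lhx6, Sst and Npy spanned 0.18, 0.39 and 0.22 log2 units. The median of the 6 was 0.42 higher in culture 2 than in culture 1 and 0.36 higher in culture 3, and 5 of them were highest in culture 2. Of the 10 immediate early genes, 7 exceeded the GABA marker with the largest difference between cultures 3 and 1 (0.73, Gad1), 7 that with the largest between cultures 3 and 2 (0.19, Npy), and 5 that with the largest between cultures 2 and 1 (1.03, Gad1). The share of all other genes over these values was not counted, and the 10 were chosen with their values known, so nothing is read from these counts. Culture 1 was lowest in 9 of the 10 immediate early genes and in 6 of 6 GABA markers. Culture 3 was highest in 8 of the 10 and in 1 of the 6 (Npy), and culture 2 in Fos, Fosl2 and the other 5 markers. Of the 13145 other genes called above background, 2037 were highest in culture 3 and 6785 in culture 2.

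Astrocyte markers ran the other way. All 6 were called above background, highest in culture 1 and lowest in culture 2. Gfap, an intermediate filament protein, was at 8.51, 6.64 and 8.08, the water channel Aqp4 at 8.74, 7.53 and 8.34, and the gap junction protein Gja1 at 11.22, 10.001 and 10.67. Aldh1l1 (10.69, 9.80 and 10.30), Aldoc (11.77, 10.98 and 11.41) and the glutamate transporter Slc1a3 (11.92, 11.36 and 11.49) followed. Gfap was not called without culture 1 (limma adjusted p = 0.0888) or without culture 3 (0.10). Their median was 1.05 log2 units lower in culture 2 than in culture 1 and 0.41 lower in culture 3. The 4 dividing cell markers, Mki67, Top2a, Cdk1 and Bub1, were all called and highest in culture 1, with medians 0.24 lower in culture 2 and 0.29 lower in culture 3, and the 4 oligodendrocyte precursor markers, Pdgfra, Olig1, Sox10 and Cspg4, were called with medians 0.14 and 0.11 lower, Sox10 (8.94, 8.23 and 8.47) being lower in cultures 2 and 3 and Cspg4 (7.998, 8.19 and 8.08) higher. The label of purified interneurons therefore stands beside glial and dividing cell signal in every culture, and the part of these cell types in the differences of the immediate early genes was not tested.

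Markers of glutamatergic neurons were mostly near the background line. Of 6 measured markers only Neurod2 (7.14 ± 0.16) was called above background. Slc17a7 (6.11, 7.22 and 6.63; limma adjusted p = 0.122), Slc17a6 (6.11, 7.01 and 6.07), Neurod6 (5.63, 6.28 and 5.598) and Tbr1 (5.87, 6.27 and 5.89) were highest in culture 2 and were not called, nor was Emx1 (6.08, 6.35 and 6.46). Without culture 1, Slc17a7 passed (adjusted p = 0.041). Of the other cell types, 3 of 5 microglia markers (Cx3cr1, Aif1 and P2ry12, not Csf1r or Itgam) and 4 of 4 endothelial markers (Pecam1, Cdh5, Kdr and Cldn5) were called, 1 of the 5 without culture 3 and 2 of the 4 without culture 1. With a margin of 1 log2 unit over the line limma called 0 of these 9, and 0 also at an unadjusted p under 0.05.

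Around the 10 genes, 8 lists of related genes were examined, 121 genes of which 111 were measured and 103 called above background, against 63.4% of all genes. Among 32 other immediate early genes, 30 were called, Ier2 (6.40 ± 0.12, adjusted p = 0.0769) and Ptgs2 (6.14 ± 0.03) being the exceptions. Their median difference between cultures 3 and 1 was 0.10 log2 units, and none reached 1. The widest spans were in Dusp4 (8.79, 10.15 and 9.69), a phosphatase that turns off MAP kinases, and in the kinases Sik1 (9.10, 10.10 and 9.91), Plk3 (8.48, 9.26 and 8.96) and Plk2 (8.997, 9.70 and 9.50). All of these were lowest in culture 1 and highest in culture 2. Of the 13145 other genes called above background, 42.4% were lowest in culture 1 and 6785 were highest in culture 2. Atf3, a stress-responsive factor, was at 7.13, 7.39 and 7.59. Culture 3 exceeded culture 1 by 1 log2 unit or more in 0.198% of the other genes called above background. None of 32 is near that share. The 10 genes were chosen with their values known, so no contrast with them is read from this count. Between cultures 2 and 1, Dusp4 (1.36) and Sik1 (1.002) of the 32 did reach 1 log2 unit, as did 0.768% of the other genes called above background.

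Later activity-regulated genes, many of which AP-1, NPAS4 or CREB can drive, encode secreted and synaptic proteins. Of 14 measured, 10 were called above background, and Bdnf (6.02 ± 0.26), the neurotrophin that excitatory neurons make on activity, Inhba (6.09 ± 0.24), Adcyap1 (6.02 ± 0.19) and Crh (5.38 ± 0.10) were not. Pcsk1, a protease that matures neuropeptides, was at 6.998, 8.41 and 8.52, with the layout of the Nr4a genes, although its call was lost without culture 2 (adjusted p = 0.0836). Vgf, a secreted neuropeptide precursor, was at 7.84, 9.30 and 8.89, Igf1, a growth factor, at 8.06, 9.24 and 8.89, and Penk, the enkephalin precursor, at 8.09, 9.15 and 8.88. These were lowest in culture 1 and highest in culture 2, as 5 of the 6 GABA markers were. Culture 2 was also highest in 6785 of the 13145 other genes called above background. Homer1, a postsynaptic scaffold, spanned 0.31 and Scg2, a granin, 0.20. The median difference over the 14 was 0.23 between cultures 3 and 1 and 0.31 between cultures 2 and 1. Pcsk1 (1.52) and Vgf (1.06) exceeded culture 1 by more than 1 log2 unit in culture 3.

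The machinery that leads from activity to these promoters was measured in part. All 14 measured genes of calcium entry and signalling kinases were called above background, and none of them differed between cultures 3 and 1 by more than 0.37 log2 units in either direction. Adcy1, a calcium-stimulated adenylate cyclase, was at 9.17, 10.06 and 9.54. Grin2a, an NMDA receptor subunit, was at 6.57, 7.42 and 6.55, and its call was lost without culture 1 (adjusted p = 0.0743) or culture 3 (0.0691).

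Of 19 measured genes for factors at the promoters and their regulators, repressors among them, 18 were called, Nfatc4 (6.19 ± 0.32) being the exception. Creb1 (10.57, 10.54 and 10.54), the founding CREB gene, its coactivators Crebbp (11.03, 11.03 and 10.96) and Crtc1 (10.01, 10.04 and 9.98), and Srf (9.03, 9.25 and 9.04) differed by 0.22 log2 units or less. Mef2c, a calcium-responsive factor, was at 9.45, 10.19 and 9.99, and Hdac5, a repressor that leaves the nucleus on activity, at 9.61, 10.15 and 10.01. The median difference between cultures 3 and 1 over the 19 was -0.01. RNA levels do not show the phosphorylation through which CREB and SRF cofactors act.

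Partners of the group were called as well. All 8 genes for dimer partners and corepressors were above background, among them Arnt2 (11.12 ± 0.12), which pairs with NPAS4, and Nab2 (9.48 ± 0.07), an EGR corepressor that EGR factors themselves induce, and their median difference between cultures 3 and 1 was 0.01. All 10 genes of ARC's endocytic partners and of AMPA receptors were above background, with Gria1 at 10.05, 10.59 and 10.40 and Gria2 at 11.56, 11.64 and 11.68, and a median difference of 0.11. Of 9 measured stress genes 8 were called, Hspb1 (6.10 ± 0.12) being the exception. The heat shock gene Hspa1a was at 6.89, 7.93 and 7.14, and Atf4 at 8.58, 9.15 and 9.06. The median difference of the stress genes was 0.22. Culture 1 was lowest in 5 of the 9, culture 2 highest in 6 and culture 3 highest in 0. Among the 13145 other genes called above background these numbers were 5573, 6785 and 2037. The part of stress in the differences of the immediate early genes was not tested.

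**Figure D4:**
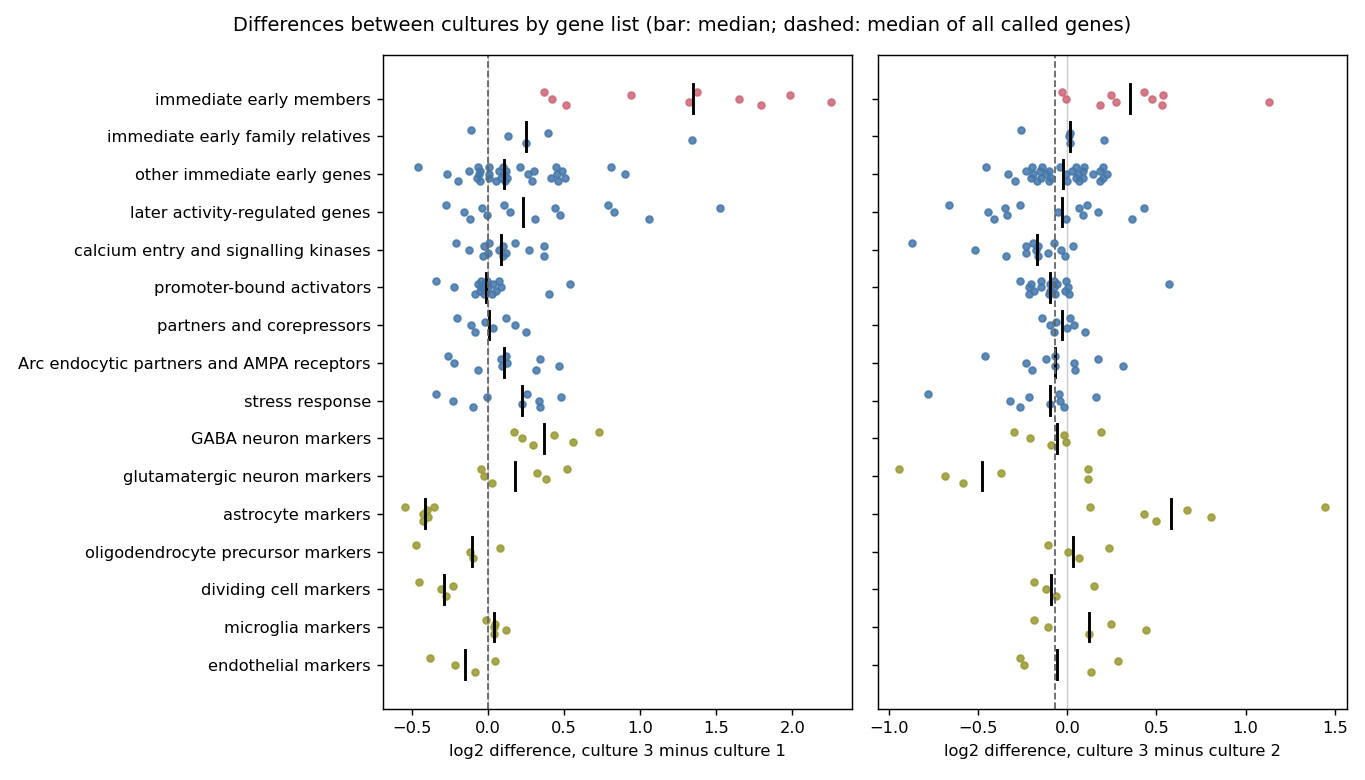
Log2 difference of each measured gene between cultures 3 and 1 (left) and between cultures 3 and 2 (right), by list; black bars are list medians and dashed lines the median of the other genes called above background (0.00 and -0.07). The immediate early members (red) have medians of 1.35 and 0.35, while the related lists (blue) have medians between -0.01 and 0.25 on the left.

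The genes whose layout over the cultures came closest to the 10 were Clvs2, Snhg11, Rerg, Rasgrf1 and Nr4a2. Likeness was the Euclidean distance between a gene's deviations from its own mean and the median deviations of the 10 genes, -0.85, 0.10 and 0.47 in cultures 1, 2 and 3, over 13145 genes and 3 cultures. Clvs2 (distance 0.17) was at 6.28, 7.18 and 7.53, and Snhg11 (0.26), a long noncoding RNA, at 9.14, 9.90 and 10.20. Rerg (0.28) was at 6.95, 7.82 and 7.97, and Rasgrf1 (0.34), a calcium-dependent activator of Ras, at 6.98, 7.89 and 7.93. With only 3 cultures many genes can come close by any measure, so the list is a description of these arrays.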

How the data were processed

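The values used are the log2 signals the authors deposited, 1 per probe set and culture, made with oligo and RMA per the submitters' processing notes, which corrects background, normalizes the arrays and summarizes probes. Their versions, settings and genome build are not given. Culture medians were 6.57, 6.52 and 6.56. Precision is limited by the number of arrays, which have no read depth. By the platform's probe annotation, 23521 probe sets have 1 symbol, 1814 several (not used) and 16010 none. All 10 genes matched RefSeq by identifier.

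Background was the 95th percentile of 1440 receptor probe sets. For the other 22081 probe sets (20751 genes), limma 3.58.1 in R 4.3.3 tested by a 1-sided moderated test whether the mean exceeded it, with Benjamini-Hochberg adjustment over all of them. A gene with several probe sets was called if 1 or more passed, and is shown by the one of highest mean. Each p-value is for a mean above this fixed line, judged against the spread between 3 cultures, and takes no account of error in the line. The test was checked on simulated data that kept the same line, so that check did not cover the choice of line either. Files of raw scans were not used here, so another background correction was not tried.

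The members and lists were chosen with earlier results of these data known. Genes named beside the 10 were, for each related list, those not called where 5 or fewer, all markers, and the 5 of closest pattern. Others were named after their values were seen. Of the list genes, 3 were found under a newer symbol.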

Additional observations from a re-analysis of the deposited data

How the results depend on the processing

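The median differences of the 10 genes kept their direction after quantile normalization and median centring. Taking the mean of a gene's probe sets could change nothing, because each of the 10 has 1 probe set. Leaving out each of the 10 in turn, an alternative chosen after seeing the data, could not turn the direction either. The differences were above 0 in 9 (culture 2 minus 1), 10 (3 minus 1) and 8 (3 minus 2) of the 10 genes. Over all of these settings the medians ranged from 0.66 to 1.12 (culture 2 minus 1), from 1.32 to 1.37 (3 minus 1) and from -0.43 to -0.28 (2 minus 3). Counts of genes called by limma moved by over 1.5 times in 4 lists. The family relatives went from 5 to 3 called at the 99th percentile and to 3 with a margin of 1 log2 unit (Egr2 and Egr4 lost). Glutamatergic markers went from 1 to 0 at the 99th percentile, 0 with the margin and 4 at the 90th percentile, and from 1 to 2 with a culture left out. Microglia markers went from 3 to 0 at the 99th percentile and 0 with the margin, and ranged from 1 to 3 with a culture left out. Endothelial markers went from 4 to 1 at the 99th percentile and 0 with the margin, and ranged from 2 to 3 with a culture left out. Where a count was 0, it was 0 at an unadjusted p under 0.05 too. The higher lines call fewer genes by construction, and a left-out culture leaves 2 samples in the test. No paired analysis was possible because the series has 1 group. A difference between 2 cultures rests on 1 array each, so its error is unknown.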
